A study of Mus musculus with 4 samples.

Results

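The large histone gene cluster of mouse chromosome 13 was described as the CG sites between positions 21600000 and 24100000 of chromosome 13 (mm9) that had at least 5 reads in each of 4 libraries. These were 5332 of the 21798 CG sites listed there (24.5%), and 2638319 of the 21342492 CG sites listed on chromosomes 1 to 19, X and Y (12.4%) met the same minimum. Methylation had been read by targeted bisulfite sequencing: probes capture chosen stretches of genomic DNA, bisulfite converts cytosines that carry no methyl group, and the level of a site is the percentage of its reads that stayed unconverted. The samples were 2 libraries of swim-up sperm and 2 libraries of histone replacement-completed sperm (HRCS), all from untreated adult wild-type C57BL/6 males. Swim-up sperm are motile sperm that leave the caudal epididymis into the medium, and part of them still carry histones that protamines have yet to replace. HRCS are sperm heads of high density, pelleted through Percoll from all sperm of the caudal epididymis and vas deferens after mild sonication had taken off the tails. The labels do not say that the libraries of a fraction came from separate animals, so the p-values measure only the spread between libraries, which may be technical.

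Histone genes of this kind are transcribed in S phase, when a dividing cell needs new nucleosomes, and most of their mRNAs end in a stem-loop in place of a poly(A) tail. They code for the core histones H2A, H2B, H3 and H4, which wrap DNA into nucleosomes, and for the linker histone H1. The cluster also holds genes for testis histones: H1f6 codes for H1t, and H2ac1 and H2bc1 code for TH2A and TH2B, which enter the chromatin of male germ cells before protamines do. CG-rich promoters are as a rule unmethylated in mammalian sperm, while CG-poor DNA is mostly methylated.

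To see which sites belong to which gene, promoters of 300 bp (250 bp before to 50 bp after the gene start) from RefSeq (GRCm38.p6) were laid on the listed mm9 sites by the exact spacing of their CG dinucleotides. RefSeq lists 56 histone genes here, 51 of them with a promoter sequence in the table used, and 49 promoters of 48 genes had a single place. Each sequence was searched on the strand of its gene only, so a copy on the other strand did not count. The placed promoters ran from H2bc13 at 21808003 to H2ac1, which ends at 24026355, and held between 5 and 27 CG sites. The linker histone promoters are shown first by H1f6, then the DNA between the divergent testis genes by H2ac1. The promoters with the highest and the lowest level by the mean over their sites, H2ac4 and H3c10, follow. The last is that with the most CG sites, H4c1. The capitals mark CG dinucleotides, the sites whose methylation was read, and each sequence is the 250 bp before the gene start, 5′ to 3′ on the strand of the gene.
H1f6, chr13:23695561-23695810, plus strand (GRCm38.p6): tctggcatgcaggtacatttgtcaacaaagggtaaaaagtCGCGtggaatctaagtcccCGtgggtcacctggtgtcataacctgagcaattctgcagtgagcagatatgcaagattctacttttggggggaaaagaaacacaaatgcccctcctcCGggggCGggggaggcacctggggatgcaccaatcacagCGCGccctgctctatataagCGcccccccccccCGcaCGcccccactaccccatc
H2ac1, chr13:23934187-23934436, plus strand (GRCm38.p6): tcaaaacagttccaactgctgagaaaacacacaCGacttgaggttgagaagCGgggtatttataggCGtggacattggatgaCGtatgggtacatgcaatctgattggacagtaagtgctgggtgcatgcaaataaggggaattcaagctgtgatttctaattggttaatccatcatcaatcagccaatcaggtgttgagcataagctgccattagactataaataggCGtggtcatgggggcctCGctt
H2ac4, chr13:23750838-23751087, plus strand (GRCm38.p6): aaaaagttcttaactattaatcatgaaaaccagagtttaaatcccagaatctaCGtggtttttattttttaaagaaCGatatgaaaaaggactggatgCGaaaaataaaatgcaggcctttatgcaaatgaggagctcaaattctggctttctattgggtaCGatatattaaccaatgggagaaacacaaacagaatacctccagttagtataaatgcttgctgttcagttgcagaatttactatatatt
H3c10, chr13:21717378-21717627, plus strand (GRCm38.p6): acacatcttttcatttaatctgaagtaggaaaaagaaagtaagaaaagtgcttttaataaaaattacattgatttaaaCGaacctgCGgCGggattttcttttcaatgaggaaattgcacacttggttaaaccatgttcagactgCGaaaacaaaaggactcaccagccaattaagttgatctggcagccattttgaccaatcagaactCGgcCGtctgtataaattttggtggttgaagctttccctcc
H4c1, chr13:23761250-23761499, minus strand (GRCm38.p6): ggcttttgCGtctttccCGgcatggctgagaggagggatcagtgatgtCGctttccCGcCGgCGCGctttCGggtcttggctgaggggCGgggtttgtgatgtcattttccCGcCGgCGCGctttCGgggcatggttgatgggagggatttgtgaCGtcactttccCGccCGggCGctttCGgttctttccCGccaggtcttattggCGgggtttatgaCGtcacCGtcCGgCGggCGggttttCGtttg

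These sequences differ widely in CG content, with 4 CG dinucleotides before the start of H2ac4 and 27 before that of H4c1. Over the 51 distinct histone promoter sequences the median was 9 CG dinucleotides in 250 bp, against 6 over the 32851 promoters of the table. They share sequence motifs as well, searched on both strands of the 250 bp before the start. The CCAAT box (CCAAT) was found in 43 of 51 histone promoters (84.3%) and in 33.9% of all promoters. It was present in every H1, H2A, H2B and H3 promoter of the table but in only 3 of 11 H4 promoters. TATAAA stood in 26 histone promoters (51%) and in 12.4% of all. The octamer ATTTGCAT was found in 6 of 14 H2B and 5 of 13 H2A promoters, in none of the H1, H3 and H4 promoters, and in 1.6% of all. AAACACA, the H1 box, stood in 5 of 6 H1, 2 of 13 H2A and 2 of 14 H2B promoters, in none of the H3 and H4 promoters, and in 6.25% of all. H2A and H2B genes often lie head to head and then share these bases, so their counts are not independent.

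Methylation was then compared at these promoters, at the 44 of 49 with at least 3 sites that had 5 reads in every library. Every one of them was nearly unmethylated in every library: the lowest value was 0% and the highest 2.86%, with a median of 1.06% over the 4-library means. For scale, the 22163 windows of 200 bp outside the cluster with 20 or more listed CG sites had a median of 1.11%. That class is denser than most of the 44 promoters, which held a median of 10 CG sites in 300 bp. Outside windows with 10 to 14 listed sites had a median of 1.27%, and those with 6 to 9 a median of 6.64%. No rate of failed bisulfite conversion is given in the sources used here. How much such failure adds to the promoter levels, ranks and differences given here was not tested. The mean over promoters was 1.16% and 1.02% in the swim-up libraries against 1.06% and 1.04% in the HRCS libraries. The mean fell by 0.039 percentage points from swim-up sperm to HRCS, less than the spread between the swim-up libraries (two-sided exact permutation test, p = 1; 0.33 is the smallest p that 2 libraries against 2 allow). Over the 437 single CG sites of these promoters, 340 of 30211 calls were methylated in swim-up library 1, where a call is 1 read at 1 site. That is 1.13%, with a 95% Wilson interval of 1.01 to 1.25%. The share was 0.946% (0.845 to 1.06%) in swim-up library 2, 1.09% (0.977 to 1.21%) in HRCS library 1 and 1.03% (0.918 to 1.15%) in HRCS library 2. Reads amplified by PCR are not independent molecules, and 1 read can give calls at several sites, so these intervals cover counting error only. Between 53.3% and 61.1% of the sites had no methylated read in a given library. By the mean of the 4 library levels the highest sites were nearly tied, at 8.58% in H4c1 and 8.57% in H1f6. The site of H1f6 rested on 6 to 10 reads per library, and with the calls of all libraries added up it was higher than that of H4c1, at 10.3% against 8.49%. The site of H4c1, at position 23853138, had 10.6% and 4.17% in swim-up sperm against 11.5% and 8.05% in HRCS at 78 to 104 reads.

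**Figure D1:**
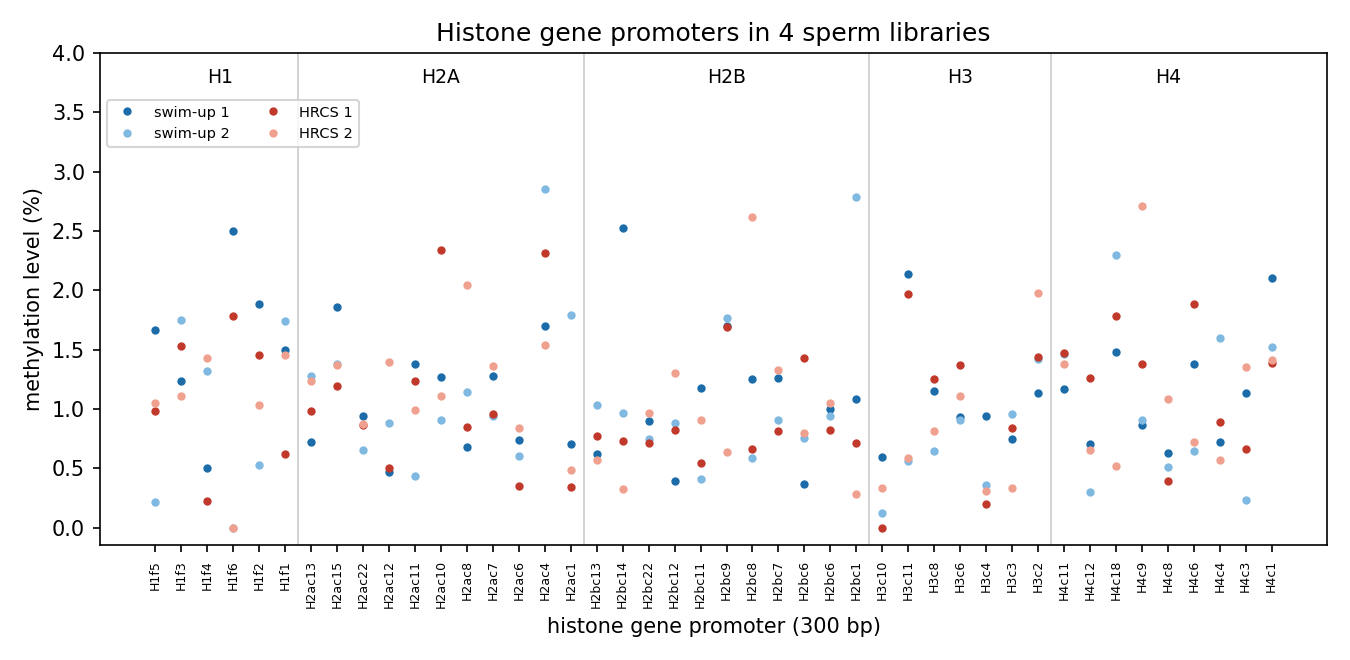
Methylation level (y axis, %) of each histone gene promoter with at least 3 qualifying CG sites (x axis, 44 promoters grouped by histone class), with 1 point per library. All points lie between 0 and 2.86%, and the points of the fractions are interspersed.

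The linker histone genes were read less deeply than the core histone genes. Their 6 promoters held a median of 16 and 16.5 reads per site in the swim-up libraries against 18.1 and 17.8 in the HRCS libraries. The 11 H2A promoters held 90.4, 101.3, 111 and 94 in the same order. The H1 mean was 1.55% and 0.926% in swim-up sperm against 1.1% and 1.01% in HRCS. The fractions overlapped. H1f6 had 8 of its 10 sites covered, with 2 methylated of 59 calls in swim-up library 1, 0 of 60 in swim-up library 2, 1 of 67 in HRCS library 1 and 0 of 56 in HRCS library 2. The fractions overlapped at H1f6 too, on these 56 to 67 calls per library. H1f3 was the highest H1 promoter over the 4 libraries, at 1.23% and 1.75% in swim-up sperm against 1.53% and 1.11% in HRCS. H1f4 was the lowest, at 0.501% and 1.32% in swim-up sperm against 0.227% and 1.43% in HRCS.

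The core histone classes were as low. H2A promoters averaged 1.07% and 1.17% in swim-up sperm against 1.08% and 1.2% in HRCS. H2ac4 was the highest, with 1.7% and 2.86% in swim-up sperm against 2.31% and 1.54% in HRCS over 5 sites, and H2ac6 was the lowest, with 0.735% and 0.601% against 0.348% and 0.836%. H2B promoters averaged 1.12% and 1.07% in swim-up sperm against 0.883% and 0.98% in HRCS, so that both HRCS libraries lay below both swim-up libraries and the mean fell by 0.16 points (p = 0.33, exact permutation test). HRCS minus swim-up was lowest at H2bc1 and H2bc14, at -1.44 and -1.22 points. It was above 0 at H2bc8 (0.726), H2bc6 with the start at 23677839 (0.549), H2bc12 (0.42) and H2bc22 (0.014). H2bc9 was the highest of them, at 1.7% and 1.77% against 1.69% and 0.634%, and H2bc13 the lowest, at 0.62% and 1.03% against 0.774% and 0.572%. H3 promoters averaged 1.09% and 0.714% in swim-up sperm against 1.01% and 0.781% in HRCS. In this class H3c2 was highest, with 1.14% and 1.42% against 1.44% and 1.98%, and H3c10 lowest, with 0.598% and 0.124% against 0% and 0.334%. H4 promoters averaged 1.13% and 1.05% in swim-up sperm against 1.23% and 1.16% in HRCS. Both HRCS libraries lay above both swim-up libraries, and the mean rose by 0.1 points (p = 0.33, exact permutation test). The genes did not move together: HRCS minus swim-up was largest at H4c9, at 1.16 points, but -0.738 at H4c18, -0.431 at H4c4 and -0.414 at H4c1. H4c1 was highest, with 2.1% and 1.53% against 1.38% and 1.41%, and H4c8 lowest, with 0.633% and 0.507% against 0.393% and 1.09%. The promoters with the fewest and the most CG sites, H2ac4 and H4c1, had 2.1% and 1.61% over the 4 libraries, both above the median promoter. These ranks give each site equal weight. With the calls of all libraries added up, H2ac4 had 1.3% and H4c1 1.7%, so H2ac4 was no longer the highest. Within H2A it then lay below H2ac15, at 1.33%. Within H2B the lowest was then H2bc11, at 0.732%, against 0.768% at H2bc13.

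The testis genes H2ac1 and H2bc1 lie head to head and share most of the DNA printed for H2ac1. H2bc1 had 1.09% and 2.78% methylation in swim-up sperm against 0.711% and 0.28% in HRCS, and H2ac1 had 0.703% and 1.79% against 0.341% and 0.481%. Both HRCS libraries lay below both swim-up libraries at each gene, and the mean fell by 1.44 points at H2bc1 and fell by 0.84 points at H2ac1 (p = 0.33 for each, exact permutation test). The swim-up libraries differed from each other by more than swim-up library 1 differed from HRCS. Such separation of the libraries was found at 12 of the 44 promoters, with HRCS above at 4 (9.09%) and below at 8 (18.2%). Over all 316993 windows of 200 bp on chromosomes 1 to 19, X and Y, both HRCS libraries lay above both swim-up libraries in 16.6% and below in 16.1%. The largest of these differences among the promoters was that of H2bc1, and 14 of the 44 promoters overlap another in 7 head-to-head pairs.

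The other 5 placed promoters, those of H2ac23, H2bc23, H4c17, H2ac24 and the gene listed as H4bc24 (Hist1h2br), had no site with 5 reads in every library. They held only 15 to 102 calls each over all libraries, against 267 to 7498 at the other 44. Each of the 5 shares an unbroken run of at least 200 identical bases with another promoter of the cluster: 300 of 300 between H2bc23 and H4bc24, 285 between H4c17 and H4c18, and 200 between H2ac23 and H2ac24. Sequencing reads had 100 cycles. Among the 44 promoters with a level the median longest shared run was 15 bases, and H4c18 alone exceeded 100. Only 6 of the 12 sites of H4c18 were covered. Whether reads from these copies were dropped in mapping was not tested, and their methylation is not reported here.

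Outside the promoters, the cluster was divided at the placed genes. The first histone block, from H2bc13 to H2bc11, held 22 placed promoters and also genes for zinc finger proteins and other proteins. No histone promoter was placed between the end of H4bc24 at 21925661 and the start of H2bc12 at 22127440. Sites of that interval count towards the values of the block. Its 1769 qualifying sites averaged 8.78% and 8.26% in swim-up sperm against 8.52% and 8.65% in HRCS. The second block, from H4c8 to H1f1, held 25 placed promoters, and its 1674 sites averaged 8.18% and 7.98% in swim-up sperm against 8.42% and 8.22% in HRCS. In these blocks 90.7% and 91.8% of the sites had at most 25% methylation over the 4 libraries, and 5.43% and 6.57% had more than 75%. The stretch that follows the vomeronasal genes, with Abt1 and butyrophilin genes, was similar: 1238 sites averaged 7.41% and 7% in swim-up sperm against 7.44% and 7.3% in HRCS.

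The histone blocks lie 1487546 bp apart, and 1234852 bp of this, between H2bc11 and 4933404K08Rik, is a stretch in which RefSeq lists 75 Vmn1r genes and pseudogenes, a family of pheromone receptors of the vomeronasal organ. Only 244 of its 7219 listed sites qualified (3.38%), so most of it was not measured. These sites averaged 33.3% and 32.3% in swim-up sperm against 32.2% and 33.2% in HRCS (HRCS minus swim-up -0.11 points, p = 0.67, exact permutation test). The sign turned under 5 of 8 alternatives. These include pairing libraries by replicate number, which cannot change a difference of means here. The 28 windows of 200 bp in it fell into 2 kinds by place. All 9 windows within 8.1 kb of H2bc11 had at most 1.76% over the 4 libraries, and all 7 windows from 1226.5 kb onward, at the far end, had at most 13.7%. Of the 12 windows between them, 1 had 4.96% and the other 11 had 52.2% or more. The longest interval without a CG-dense window (23048401 to 23262000) lies inside this stretch. It held 975 listed sites and 7 qualifying ones, with means of 96.4% and 94.9% in swim-up sperm against 95.6% and 90.4% in HRCS. No window in it had 3 qualifying sites, so no window level was computed there.

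After H1f1, the interval with the Slc17a genes, which code for phosphate and urate transporters, had the highest mean level of the 8 segments into which the cluster was divided. Its 180 sites averaged 51.6% and 49.3% in swim-up sperm against 49.2% and 50.7% in HRCS, and 16 of its 28 windows exceeded 75%. The promoter of Slc17a2 was methylated at 77.6% and 64.5% in swim-up sperm against 67.7% and 78.7% in HRCS over 7 sites. It was the exception among the 18 placed promoters of other genes with a level. These belong to 16 genes, since Zfp184 and Pom121l2 count more than once over the same sites. The other 17, among them those of Zkscan8, Zfp184, Pom121l2, Zfp322a, Abt1 and Btn2a2, had 0 to 5.45% in every library. The DNA between the testis genes H2bc1 and H2ac1, at the far end of this interval, returned to 0.809% and 2.48% in swim-up sperm against 0.534% and 0.427% in HRCS over 11 sites.

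**Figure D2:**
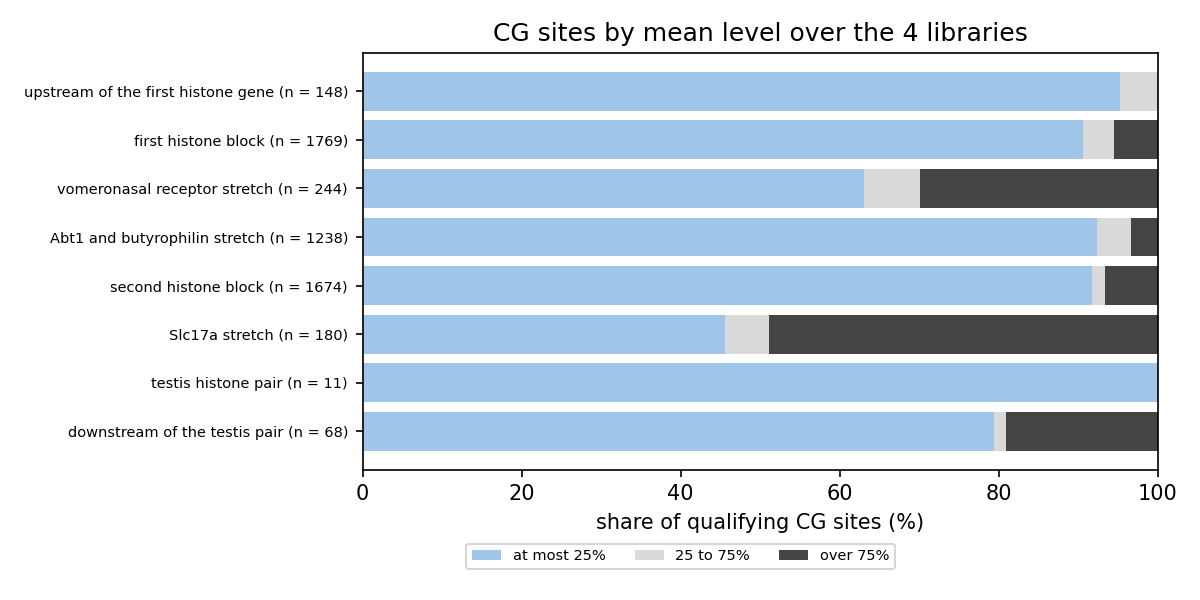
Share of qualifying CG sites (x axis, %) with a mean level over the 4 libraries of at most 25%, from 25 to 75% and over 75%, for each segment of the cluster from its start to its end (y axis, with the number of sites n). Sites over 75% make up 5.43% and 6.57% in the histone blocks, 29.9% in the vomeronasal receptor stretch and 48.9% in the Slc17a stretch.

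To ask how far the low level extends from the genes, qualifying sites were averaged in steps of 250 bp from the nearest histone gene start. From 500 bp upstream to 499 bp downstream, the averages lay between 0.898% and 1.29% in every library. At 500 to 749 bp downstream they were 1.5% and 1.14% in swim-up sperm against 1.35% and 1.6% in HRCS. At 1000 to 1249 bp downstream they were 9.73% and 7.94% against 8.6% and 9.23%. At 1750 to 1999 bp downstream, with 10 sites left, they reached 54.5% and 58.4% against 55% and 54%. Upstream, the steps from 751 to 1500 bp held 4.61 to 10.6% in single libraries, and the next step, over 27 sites, reached 31% and 31.3% against 31% and 31.4%. Histone genes of this kind are short and have no introns. Of the 239 windows centred within 1000 bp of a histone start, all 239 had at most 25%, and the highest had 12%.

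**Figure D3:**
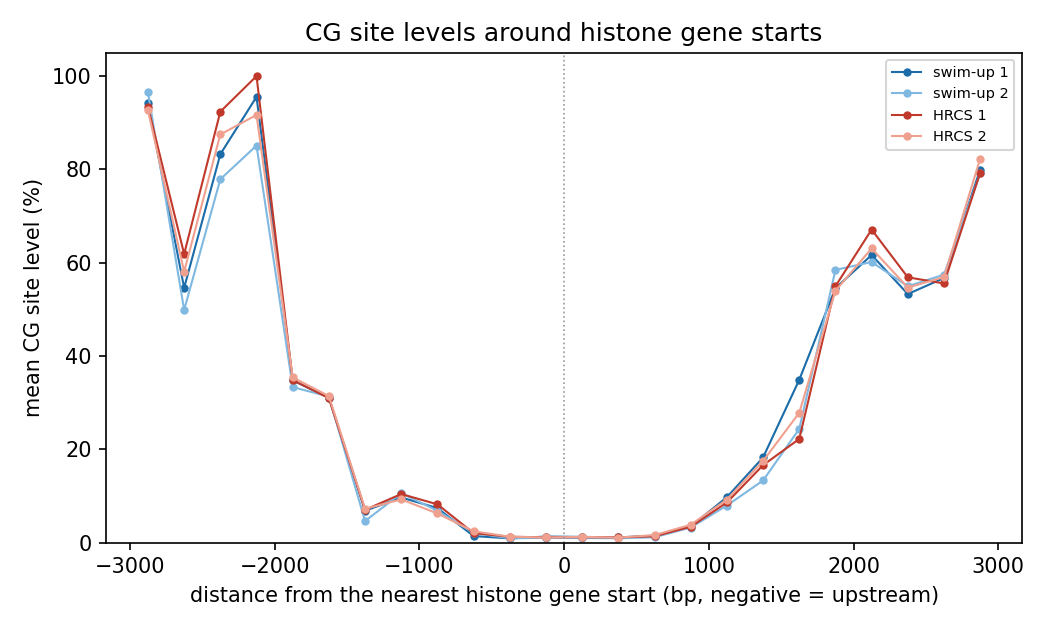
Mean CG site level (y axis, %) in steps of 250 bp by distance from the nearest placed histone gene start (x axis, bp, negative upstream), with 1 line per library. The 4 lines stay below 2.5% from 750 bp upstream to 749 bp downstream, and rise on either side of that, while the outer steps hold few sites and spread apart.

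Levels were then sorted by CG density, the number of CG sites listed in a window of 200 bp, for the 663 windows with at least 3 qualifying sites. Windows with 10 or more listed sites are here called CG-dense. The cluster holds 277 of them, and 184 had a level. All of these 184 were nearly unmethylated, and the others were not measured. Outside the cluster, 93.4% of the 72054 CG-dense windows with a level had at most 25%. Their median was 1.16%, against 0.983% in the cluster. The 184 averaged 1.17% and 1.09% in swim-up sperm against 1.09% and 1.2% in HRCS (difference 0.02 points, p = 1, exact permutation test). The highest, at 22003201 to 22003400, had 5.27% and 5.42% in swim-up sperm against 2.14% and 8.26% in HRCS, at 77 to 138 calls. It lies in the first block, 77689 bp from the nearest placed histone start. The next, at 23488801 to 23489000, had 2.68% and 4.19% against 4.75% and 5.2%. The 3 that follow had means of 3.67%, 3.31% and 3.14% and lie 165 to 326 bp from the starts of H3c11, H3c3 and H1f4.

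Windows with 6 to 9 sites averaged 4.92% and 4.42% in swim-up sperm against 4.8% and 4.66% in HRCS. Of these 195 windows 189 had at most 25% (96.9%) and 6 had more than 75% (3.08%), with none between. Over all other windows of this class, 59% had at most 25% and 32.7% had more than 75%. Windows with 3 to 5 listed sites, here called CG-sparse, held nearly all of the variation. Their 284 levels averaged 26.2% and 25.6% in swim-up sperm against 26% and 26.4% in HRCS (difference 0.36 points, p = 0.67, exact permutation test), but the median window had only 3.66%. Of the 284, 200 had at most 25%, 54 had more than 75% and 30 lay between. Those 30 are all the windows of the cluster with a middle level. In 6 CG-sparse windows no read was methylated in any library, at 128 to 434 calls in all. Taken as 3 over the calls, this allows a level of up to 0.691 to 2.34%, a limit that covers counting error only. It treats calls as independent, but 1 read can give calls at several sites, so the true limit can be higher. Among the 6 were windows 462 bp from each of the 2 starts listed for H2bc6.

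The CG-sparse windows of the cluster were less methylated than CG-sparse windows elsewhere. On the rest of chromosome 13 the 6621 windows of this class averaged between 60.3% and 60.5% in each library, and 32.4% of them had at most 25%, against 70.4% in the cluster. The cluster minus these windows was -34.8 to -34.1 percentage points in the 4 libraries (two-sided exact sign-flip permutation test over libraries, p = 0.125, the smallest that 4 libraries allow). Against the 165937 such windows of all other chromosomes and of the rest of chromosome 13 the difference was -38.1 to -37.3 points (p = 0.125, same exact test). At 20 or more sites the difference from all other windows was -0.35 to -0.243 points (p = 0.125, same exact test). The libraries of a fraction are repeated measurements of the same genome, so the test speaks for the reading of these windows and not for other clusters.

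**Figure D4:**
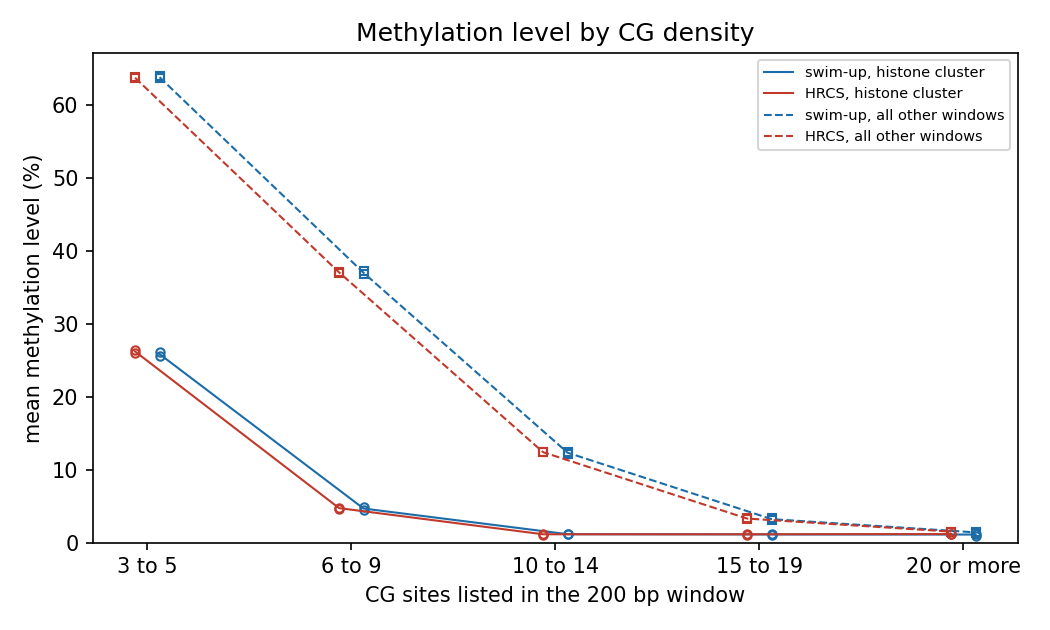
Mean methylation level (y axis, %) of 200 bp windows by the number of CG sites listed in them (x axis), in the histone cluster (solid lines, circles) and in all other windows (dashed lines, squares); lines join the means of the 2 libraries of a fraction and symbols are single libraries. The cluster lies lower in each class, with a difference of -38.1 to -37.3 points at 3 to 5 sites and of -0.35 to -0.243 points at 20 or more.

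Nearness to CG-dense DNA was set beside this result. Of the 284 CG-sparse windows, 156 lay within 1000 bp of a CG-dense window, and these averaged 7.27% and 7.29% in swim-up sperm against 7.52% and 7.59% in HRCS, with none over 75%. Elsewhere on chromosome 13 the same kind of window averaged between 20.6% and 21.1%, and 11.9% exceeded 75%. The cluster minus these was -13.7 to -13.3 points (p = 0.125, exact sign-flip permutation test). Farther than 1000 bp from CG-dense DNA, 128 windows of the cluster averaged 49.2% and 47.9% in swim-up sperm against 48.6% and 49.4% in HRCS, against 73.2 to 73.3% on the rest of the chromosome (p = 0.125, same exact test). Distance from a histone gene was set beside it in the same way. The 77 CG-sparse windows within 1000 bp of a histone start averaged 1.88% and 1.66% in swim-up sperm against 1.85% and 2.13% in HRCS, and the 207 others averaged 35.2% and 34.5% against 35% and 35.5%. The difference was 32.8 to 33.3 points in each library (p = 0.125, exact sign-flip permutation test). Of the 77, 75 also lay within 1000 bp of a CG-dense window. Among the 156 windows that near to CG-dense DNA, these 75 averaged 1.88% and 1.7% in swim-up sperm against 1.85% and 2.18% in HRCS. The other 81 averaged 12.3% and 12.5% in swim-up sperm against 12.8% and 12.6% in HRCS, higher by 10.4 to 10.9 points in each library (p = 0.125, exact sign-flip permutation test). All libraries read the same genome, so these p-values too speak only for the reading of these windows. The split by distance from a histone start rests on sites of the profile above and is not separate evidence.

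Highly methylated windows did occur inside the histone blocks, 11 in the first and 20 in the second. The nearest to a placed histone start lay 1056 and 1256 bp from that of H2ac4, with means of 95.2% and 97.8%. Distances to other genes were not measured. A group of 11 lay between H4c3 and H1f2, 6175 to 18974 bp from the nearest placed histone start, with means of 82.2% to 100%.

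The last comparison asked whether any window of the cluster differed between swim-up sperm and HRCS. Across the 663 windows the levels of the fractions had a Pearson r of 0.993, given as a description, since windows share libraries. Of the windows 573 had at most 25% and 60 had more than 75%, so r says little about likeness among the low windows. Between replicates r was 0.988 in each fraction, and a library of either fraction correlated with those of the other at 0.985 to 0.99. No window passed an adjusted p of 0.05 by edgeR (quasi-likelihood test, Benjamini-Hochberg adjustment over all windows), where 13 of 316993 (0.0041%) passed, and the lowest adjusted p in the cluster was 0.964. An unadjusted p under 0.05 was found for 31 of the 663 windows (4.68%) and for 4.61% of all windows. With limma on logit levels 44 windows (6.64%) had an unadjusted p under 0.05, against 5.63% of all windows, and none was called. Adding up the calls of a fraction and applying Fisher's exact test gave 52 windows (7.84%) at that p, against 9.66% of all windows. That test called 0 windows in the cluster and 2397 (0.756%) over all chromosomes. Both HRCS libraries lay above both swim-up libraries in 121 windows (18.3%) and below in 94 (14.2%), against 16.6% and 16.1% of all windows. The fractions were more than 10 percentage points apart in 14 windows (2.11%), against 3.18% of all windows.

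**Figure D5:**
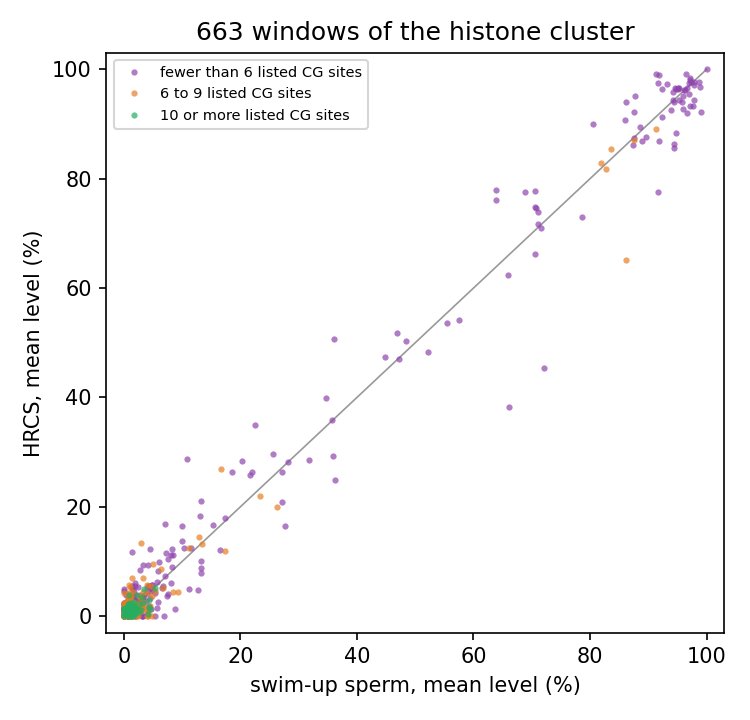
Mean level in HRCS (y axis, %) against swim-up sperm (x axis, %) for the 663 windows of the cluster, each point a window coloured by the number of listed CG sites, with the line of equal levels. Windows with 10 or more sites gather at the origin, with at most 5.27% over the 4 libraries, and the points far from the line are CG-sparse or have 6 to 9 sites.

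The largest separated differences rested on 3 or 4 sites of low depth. The largest increase in HRCS was at 23525601 to 23525800, with 12.5% and 9.25% in swim-up sperm against 18.2% and 39.4% in HRCS. Most of it came from 1 site, at 23525752, where HRCS library 2 had 80% at 5 reads. The next were at 21801201, before the first histone gene, with 30.3% and 41.8% against 45.2% and 56.1%, and at 22022401, with 60.1% and 67.6% against 73.9% and 81.9%. The largest decrease was in the vomeronasal stretch at 22374201 to 22374400, with 77.9% and 54.2% in swim-up sperm against 50% and 26.7% in HRCS over 15 to 31 calls. It was followed by 22904601, with 86.7% and 85.8% against 56.5% and 73.8%, and by 23824401, 6175 bp from H1f2, with 87.7% and 95.8% against 86.7% and 68.3%. None of these 6 windows had an unadjusted p under 0.05. The lowest was 0.0742, at 22904601, from edgeR's test.

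The number of reads at the promoters was compared as well, a comparison chosen after the values were seen. Qualifying sites of histone promoters (437) took 385 and 444 calls per 1000000 calls of a swim-up library, against 344 and 367 for an HRCS library. The 199 sites of the other placed promoters, without Gm11335, whose promoter overlaps that of H4c8, took 64.3 and 61.4 per 1000000 in swim-up sperm against 76 and 77.1 in HRCS. The histone share of these promoter calls was 85.7% and 87.9% in swim-up sperm against 81.9% and 82.7% in HRCS, and its mean fell by 4.49 percentage points. These are given as a description with no test, since the sites were selected by their reads and the comparison by its values. At 20 of 44 histone promoters both HRCS libraries had fewer calls per 1000000 than both swim-up libraries, and at 2 both had more. Over all windows HRCS lay below in 22.5% and above in 23.9%, and over the 72238 CG-dense windows below in 19.2% and above in 28.9%. Among the 15 other genes with a promoter level, again without Gm11335, HRCS lay below at 2 and above at 8. Over all qualifying sites of the cluster the fractions overlapped, with 2589 and 2823 calls per 1000000 in swim-up sperm against 2593 and 2667 in HRCS.

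Calls in the cluster numbered 214776 and 213850 for swim-up sperm and 243300 and 219118 for HRCS, and its qualifying sites had a median of 26, 27, 31 and 28 reads. The median window held 6 qualifying sites and between 150 and 169 calls per library. At the 114 and 113 sites with enough methylated and unmethylated reads, replicates differed by more than binomial sampling gives, with a mean chi-square of 1.64 in swim-up sperm against 1.39 in HRCS, where sampling alone gives 1.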

How the data were processed

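The authors mapped single reads of 100 cycles to mm9 with Bmap and deposited whole-number counts, for each CG site and strand, of methylated and of total reads, not normalized. Columns have no names. The count that is never the larger was read as methylated, which that check alone cannot prove; read the other way, each level would be 100% minus the one given. The reading taken puts CG-dense windows low and most CG-sparse windows high over all chromosomes, as is known of mammalian DNA. Whether duplicate reads were removed is not given in the sources used here. Strands were added, sites needed 5 reads in every library, and levels of windows and promoters are means over at least 3 sites, each site with equal weight. Swim-up sperm had 78562921 and 71379227 calls and HRCS 89403347 and 78381101. Mean levels were compared with exact permutation tests over libraries. Windows were tested with edgeR 4.0.16 in R 4.3.3 (quasi-likelihood, 1 dispersion without a trend, terms for each library, for methylated calls and for methylated calls in HRCS). The script was tested on simulated libraries, with changes of at least 10 percentage points planted in windows of all chromosomes. There it recovered 86 of 200 changed windows (43%) and called 1 unchanged window. Smaller differences, such as those at the histone promoters, were not simulated. Windows that differ can therefore go uncalled. Python 3.11.15, numpy 2.4.6, pandas 2.3.3, scipy 1.17.1 and limma 3.58.1 were also used. Of 138 promoter sequences tried, 83 had a single place by CG spacing (at least 4 CG dinucleotides, no other listed site in the span), all on chromosome 13. Only the strand of the gene was searched. No mm9 genome or annotation was used, and no coordinates were converted. H3 peaks and probe regions were not used here. Windows were named by rule: any past the adjusted p, the 3 largest increases and decreases whose libraries do not overlap, and the 5 highest CG-dense and lowest CG-sparse windows (6 tied at 0). Genes named were the testis histones and the extremes of each class. Members, lists and rules were chosen with earlier results of these data known, and other items named were picked after their values were seen. Alternatives were other read minimums, window sizes, site minimums, classes, tests, pooled calls, the replicate block and leaving out each library.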

Additional observations from a re-analysis of the deposited data

How the results depend on the processing

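No window of the cluster was called under any of the 14 alternatives run. Over all chromosomes the 13 calls became 3 to 36 without a library, 0 with limma, 2397 with Fisher's exact test, 7 at 10 reads, 2 at 20 reads, 6 in windows of 500 bp and 6 at 5 sites. The differences between the fractions (HRCS minus swim-up, percentage points) were small, and their signs were not stable. With pooled calls the cluster mean went from 0.14 to -0.17 and CG-sparse windows from 0.36 to 0.89, and CG-dense windows went from 0.016 to 0.066 at 20 reads and 0.097 in windows of 100 bp. Leaving out each library gave -0.086 to 0.36 for the cluster mean, with the sign turned without swim-up library 2. It gave -0.038 to 0.069 at CG-dense windows (turned to -0.021 without swim-up library 2 and to -0.038 without HRCS library 2), 0.073 to 0.65 at CG-sparse windows, and -0.11 to 0.035 at histone promoters (turned without swim-up library 1). CG-sparse windows turned to -0.026 in windows of 500 bp and to -0.051 with fewer than 4 listed sites, and histone promoters to 0.00016 at 10 reads. The vomeronasal stretch, an interval chosen after seeing the data, went from -0.11 to 0.34 at 10 reads, 0.12 at 20 reads and 2.95 with pooled calls, and to -0.64 to 0.42 without a library (turned to 0.36 without swim-up library 1 and to 0.42 without HRCS library 1). The causes were not tested. The correlation of the fractions was 0.99685 at 10 reads, 0.99735 at 20 reads, 0.98619 at 1 site, 0.98971 in windows of 100 bp, 0.9811 for single sites and 0.9888 to 0.99154 without a library. CG-sparse windows of 100 bp were not run, since the class scaled to that size holds fewer than 3 sites, and the longest CG-poor interval had no window with 3 sites. Equal replicate numbers have no stated shared origin, and same-numbered libraries deviated with r = -0.0018 over all windows and -0.15 in the cluster. Under the replicate block the differences stayed at 0.14, 0.016, 0.36, -0.039 and -0.11, in the order above, with 0 windows called in the cluster and 9 in all. Depth limits single sites most: at 5 reads a level can take few values.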
